A study of Mus musculus with 18 samples.

Results

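The cytosolic ribosomal protein genes were the 92 gene columns whose symbol is Rpl or Rps followed by a number, or is Rplp0, Rplp1, Rplp2 or Rpsa, leaving out the kinases of the Rps6k family and columns named -ps, of 35843 gene columns in the deposited matrices. Of the 92 genes, 54 carried an Rpl symbol and 38 an Rps symbol. The annotation classed 86 as protein coding and 6 (Rps3a3, Rps3a2, Rps4l, Rpl37rt, Rps12l1 and Rpl6l) as pseudogenes, and Rps19bp1, a binding partner of Rps19, came in through its spelling and is no ribosomal protein. All 92 had at least 1 UMI in the wild-type cells.

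The cytosolic ribosome joins a small subunit, which reads the messenger RNA and holds the Rps proteins, to a large subunit, which forms peptide bonds and holds the Rpl proteins. Most of these proteins are made in equal number from genes on many chromosomes, and their mRNAs typically begin with a C followed by a run of pyrimidines, through which mTOR signalling controls their translation. A few members have paralogs with a restricted tissue range, of which Rpl3l, a striated muscle counterpart of Rpl3, is the best known in heart.

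The series measured single cells of mouse hearts (strain Myh6/Esr1-Tomato, in which a tamoxifen-activated Cre driven by the heart muscle promoter Myh6 switches on a red reporter) with the ICELL8 nanowell system, which tags the 3′ ends of polyadenylated RNA with unique molecular identifiers (UMIs). Of 18 samples, each the content of a nanowell chip, 12 were wild type, 2 each from postnatal days 4, 7 and 14 (P4, P7 and P14) and 6 from P28, and 6 were chips of P28 hearts that mixed animals injected at P1 with lentivirus carrying a hairpin against Jun (shJun) or a non-targeting hairpin (shNT). The labels give this reporter strain for all samples, the shNT controls included, while the study's methods name it for the samples of P4 to P28 labelled as wild type and give no strain for the knockdown animals. The P4 and P7 hearts were minced and digested with a kit, and the P14 and P28 hearts were digested by Langendorff perfusion, so a difference between late (P14 and P28) and early (P4 and P7) chips cannot be told apart from the change of digestion. The study's methods also gave the mothers of the reporter mice tamoxifen up to P4. Time since dosing therefore differs between early and late chips too and cannot be told apart from age. The 12 wild-type chips held cells of 11 animals. Both P4 chips came from the same 2 animals, as did both P7 chips, and chips of P28 shared animals in pairs, so p-values over chips measure a spread that is in part technical.

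After filtering, 12794 of 15993 wild-type cells remained, and 8947 fell in 4 classes named from marker genes: 2949 cardiomyocyte-like (CM-like), 2497 endothelial-like, 2407 fibroblast-like and 1094 macrophage-like cells. The CM-like class held 2 P28 clusters that scored highest for the cardiomyocyte markers but were led by other genes, one of 519 cells by the endothelial genes Sele, Pcdh17 and Cav1 and one of 107 cells by Zscan18, with the immune genes Ccl4 and Cxcl2 among its leading 10, and a cluster of 385 cells of the second shNT animal led by the skeletal muscle genes Tnnt3 and Myh2. Without these clusters, a setting chosen after seeing the data, the CM-like directions and the calls on the share and Rpl3l differences were the same. The late minus early share was -0.476 points and the Rpl3l difference 47.5 points. Late against early, 1 member was called, as with the clusters kept. Between classes, 21 members were called beside 19 with the clusters kept. All 345 P4 CM-like cells fell in a cluster with Ttn and the atrial genes Sln, Myl7 and Bmp10 among its leading 10. The part of heart chamber in late against early CM-like differences was not tested. The UMIs of each class were summed per chip, and sums of at least 20 cells were used. The 8 cardiomyocyte markers, which include Ttn and Tnnt2, were all detected and together stood at 33653 to 73491 CPM in CM-like sums (CPM here being UMIs of a gene when the non-mitochondrial UMIs of a sum are scaled to 1000000), against 554 to 19646 CPM in sums of the other classes, and all 8 were detected in every class. P7 replicate 1 held 16 CM-like cells and gave no CM-like sum, and at P28 the CM-like sums came from replicates 1, 3 and 5 and those of the other classes mostly from replicates 2, 4 and 6. Total UMIs per chip ranged from 11161784 to 106226097 in wild-type and from 88597336 to 133264535 in knockdown chips. Barcodes mark wells, so chips reuse them: 4404 of 4958 barcodes in wild-type chips were on more than 1 chip and none was repeated within a chip. How reads that fit several genes were assigned is not given in the sources used here. This bears on the members, since 52 of the 92 shared at least 50 percent of the 31-base words in the last 300 bases of their transcript with another gene, and 21 shared none. For this, 1 transcript was chosen per gene, and other ends of a gene were not scored.

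The sequences at the start sites are shown because the pyrimidine run there is the feature these genes are known to share. RefSeq start windows (build GRCm38.p6, 15 bases on each side of the start) were held by the table for 67 of the 92 members and were absent for 25. In the lines here the longest run of C and T is in capitals, and all are written 5′ to 3′ on the gene's strand.
Rpl4, large subunit, chr9:64173372-64173401, plus strand: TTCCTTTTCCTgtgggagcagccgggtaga
Rpl7a, large subunit, chr2:26910792-26910821, plus strand: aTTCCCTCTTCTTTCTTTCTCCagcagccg
Rpl34, large subunit, chr3:130730323-130730352, minus strand: CCTTCCTTTTCCTCTTCCggggacggtgct
Rplp2, stalk protein, chr7:141447636-141447665, plus strand: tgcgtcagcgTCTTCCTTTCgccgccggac
Rps27, small subunit, chr3:90213634-90213663, minus strand: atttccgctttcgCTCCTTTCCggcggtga
Rps27rt, retrogene of Rps27, chr9:114982725-114982754, minus strand: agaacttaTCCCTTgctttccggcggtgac
Rplp0, stalk base, chr5:115559452-115559481, plus strand: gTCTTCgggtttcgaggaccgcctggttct
Rpl3l, muscle paralog of Rpl3, chr17:24727811-24727840, plus strand: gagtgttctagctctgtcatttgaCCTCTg
A run of at least 8 C or T bases was present in 28 of 79 member start windows (35.4%), in 9 of 75 windows of mitochondrial ribosomal proteins (12.0%) and in 3943 of 32851 windows of all genes in the table (12.0%). The Rpl3l window shown had a longest run of 5 bases, its second start window a run of 4, and the Rpl4 window a run of 11. Runs were counted anywhere in the window, and that of Rpl4 lies before the annotated start. The annotated first base was a C in 30.4% of member starts, 14.7% of mitochondrial ribosomal protein starts and 16.3% of all starts. These are letters of the reference and not measurements of where transcription began in these cells.

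The second set of sequences shows how far the paralogs can be told apart. Bases that differ from the first gene of each pair are in capitals, and the windows are 30 coding bases of the GENCODE vM21 transcripts.
Rpl3, first 30 coding bases: atgtctcacaggaaattctcagctcccagg
Rpl3l, first 30 coding bases: atgtcCcacCggaaGttctcTgcCccTCgg
Rps27, last 30 coding bases: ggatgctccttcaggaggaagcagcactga
Rps27rt, last 30 coding bases: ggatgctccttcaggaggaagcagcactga
Rps27l, last 30 coding bases: ggCtgTtcAttTagAagAaagcaAcactAa
Rpl22, last 30 coding bases: gatgaagaggaggaggaagacgaggattag
Rpl22l1, last 30 coding bases: gatgaagaTgGTTCAgaGTCTgaggaCtaA
Rpl36a, last 30 coding bases: aagagaaagggccaagtgatccagttctaa
Rpl36al, last 30 coding bases: aagagGaagggccaagtgatccagttctaa
Rpl3 encodes 403 residues and Rpl3l 407, with 7 differing bases in this window, and their 3′ ends shared no 31-base word. Rps27 and Rps27rt were identical over the window and encode 84 residues each, so a UMI given to either may stem from the other. Rps27l, with the same number of residues, differed at 8 of the 30 bases, Rpl22l1 from Rpl22 at 12 and Rpl36al from Rpl36a at 1. Over whole transcripts, Rps27l shared no 31-base word with Rps27, Rpl22l1 none with Rpl22 and Rpl36al none with Rpl36a.

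Members differed in level over more than 3 orders of magnitude. Rps14, a protein of the small subunit platform, was highest with a mean of 1468 CPM over the 12 wild-type chips, followed by Rps27rt (1215), Rpl4 (910), Rplp0 (649) and Rps3 (645). The lowest were Rpl10l (0.529), known as a testis paralog of Rpl10, Rpl39l (1.02), Rpl28 (1.28), Rps12l1 (2.68) and Rpl23a (7.79). The 5 highest members held 25.5% of all member UMIs, the 10 highest 40.3%, the 20 highest 60.8% and the 10 lowest 0.426%. These shares are of counted 3′ ends, not of protein. Per kilobase of transcript, Rps27rt (3249 CPM a kilobase) came before Rps14 (2459). Between the level of a member and the part of its 3′ end that other genes share, Spearman rho was 0.0076 across the 92 genes, which are not independent. Members coded on 19 chromosomes, and examples in build mm10 are Rpl4 on chr9:64173375-64178666, Rplp0 on chr5:115559467-115563727, Rps3 on chr7:99477896-99483738 and Rps27rt on chr9:114982366-114982739.

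The summed share of the members was lower in CM-like cells than in the other 3 classes of the same stage, and in each class it was lowest at P14. In CM-like cells the members held 1.63 and 1.51 percent of non-mitochondrial UMIs on the P4 chips, 1.39 percent on the P7 chip, 0.678 and 0.824 percent on the P14 chips, and 1.17, 1.33 and 1.53 percent on the P28 chips. Both P14 values lay under all others, and the P28 values spanned from below the P7 chip to between the P4 chips. In endothelial-like cells the P4 chips had 3.06 and 2.77 percent, the P7 chips 2.43 and 2.82, the P14 chips 1.19 and 1.66, and the P28 chips 2.29, 2.41 and 2.12. In fibroblast-like cells the P4 chips had 3.23 and 3.02 percent, the P7 chips 2.47 and 2.87, the P14 chips 1.46 and 1.69, and the P28 chips 1.68, 2.29, 2.47 and 2.48, where the lowest P28 value is a sum of 20 cells from replicate 1, the chip that held mostly CM-like cells. In macrophage-like cells the P4 chips had 3.14 and 2.77 percent, the P7 chips 2.49 and 2.81, the P14 chips 1.44 and 1.67, and the P28 chips 1.89, 2.61, 2.83 and 2.14. All 4 classes therefore had their P14 chips below their P4 and P7 chips, and the stage means at P14 were 0.751% ± 0.103 (SD, n = 2) for CM-like, 1.43% ± 0.329 (n = 2) for endothelial-like, 1.57% ± 0.161 (n = 2) for fibroblast-like and 1.55% ± 0.160 (n = 2) for macrophage-like cells.

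**Figure D1:**
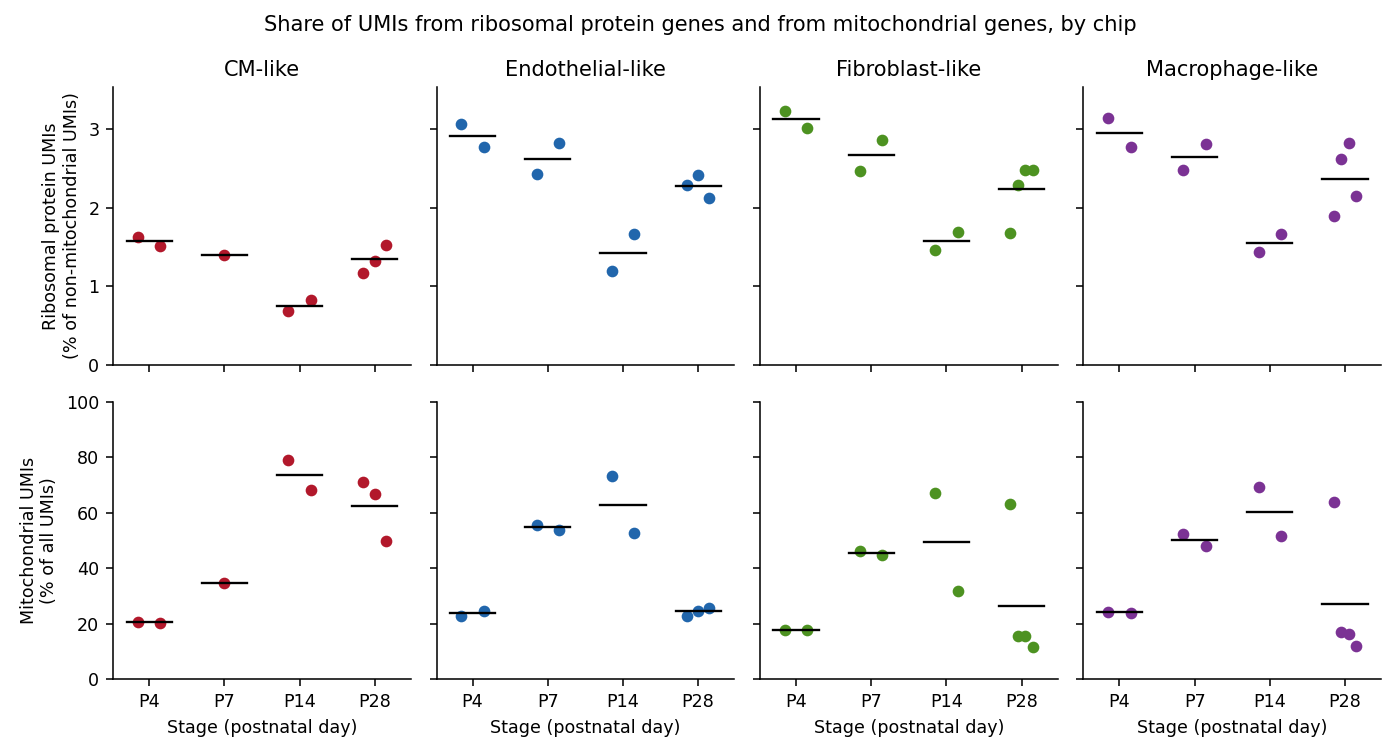
Share of the 92 ribosomal protein genes in non-mitochondrial UMIs (top row, percent) and mitochondrial share of all UMIs (bottom row, percent) by stage, for the 4 cell classes in columns; each dot is a chip and the black bar is the mean. The means of the P14 chips are lowest in the top row in every class (chips at 0.678 and 0.824 percent in CM-like cells), and CM-like mitochondrial shares range from 20.4 percent at P4 to 79.0 percent at P14.

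The late against early comparison asked whether the share fell as the heart matured. The mean share was lower in late chips in all 4 classes, but over chips in none did the adjusted p pass 0.05 (exact permutation tests, two-sided, Benjamini-Hochberg over the 4 classes). Chips of a stage share animals, and with UMIs summed per animal the differences of endothelial-like (-0.720 points) and fibroblast-like cells (-0.742 points) did pass. In endothelial-like cells it was 1.94% ± 0.504 (SD, n = 5) late and 2.77% ± 0.262 (n = 4) early, a difference of -0.832 percentage points with groups that did not overlap (exact p = 0.0159, adjusted p = 0.0571). In fibroblast-like cells the difference was -0.883 points, from 2.90% ± 0.323 (n = 4) to 2.01% ± 0.455 (n = 6; exact p = 0.0286, adjusted p = 0.0571). In macrophage-like cells it was -0.704 points, from 2.80% ± 0.267 (n = 4) to 2.10% ± 0.541 (n = 6; exact p = 0.0667, adjusted p = 0.0889). In CM-like cells it was -0.406 points, from 1.51% ± 0.118 (n = 3) to 1.10% ± 0.351 (n = 5; exact p = 0.107, adjusted p = 0.107, where 0.0357 is the smallest p this design allows).

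Other transcripts that share the denominator moved with these values. Summed UMIs of the 8 erythroid markers, of which all but Ahsp were detected and Hba-a1 and Hba-a2 led, were 236 to 1214 CPM in early and 4245 to 96654 CPM in late CM-like sums, and 729 to 10703 CPM in early and 22506 to 217016 CPM in late endothelial-like sums. In fibroblast-like sums the ranges were 408 to 8534 early and 3796 to 195638 late, and in macrophage-like sums 747 to 5998 and 3632 to 196297. Mitochondrial genes, which the denominator leaves out, held 20.4 to 34.7 percent of all UMIs in early and up to 79.0 percent in late CM-like sums, with no overlap. In CM-like sums, 3 nuclear columns that copy mitochondrial genes held 2.16 to 2.73 percent of non-mitochondrial UMIs early and 3.07 to 31.9 percent late. With the 100 most abundant genes left out of the denominator, the late minus early difference was -0.10 points for CM-like, -0.781 for endothelial-like, -0.877 for fibroblast-like and -0.356 for macrophage-like cells, with adjusted p between 0.0762 and 0.786. Without the nuclear copies of mitochondrial genes alone, a setting chosen after seeing the data, it was -0.249 points in CM-like cells. Over all 86 alternative settings of the 4 late minus early differences the sign stayed negative. These settings reuse the same chips, some leaving out only a single chip, so they are not independent. The parts that globin RNA, mitochondrial RNA and digestion had in the fall were not tested.

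Within chips, where classes share library and stage, CM-like cells had a lower share than fibroblast-like cells. Fibroblast-like cells exceeded CM-like cells by 1.12 points (SD 0.459) in 6 of 6 chips (exact sign-flip permutation test, p = 0.03125, the smallest possible, adjusted p = 0.0417 over 4 pairs), with differences from 0.516 to 1.60 points. Endothelial-like cells exceeded CM-like cells by 1.09 points (SD 0.404) in 5 of 5 chips (p = 0.0625, the smallest that 5 chips allow in this exact test, adjusted p = 0.0625). The gaps between the other classes were smaller. Fibroblast-like cells exceeded endothelial-like cells by 0.136 points (SD 0.129) in 9 of 9 chips (exact permutation p = 0.00391, adjusted p = 0.0156), and macrophage-like cells exceeded them by 0.125 points (SD 0.159) in 8 of 9 chips (exact permutation p = 0.0195, adjusted p = 0.0391). When each cell was named by its own markers rather than by cluster, the gap between fibroblast-like and endothelial-like cells was 0.0254 points and that between macrophage-like and endothelial-like cells was -0.0271. Over the alternatives run, the call held in 7 of 18 for fibroblast-like minus CM-like, with every value positive, in 16 of 20 for fibroblast-like minus endothelial-like and in 7 of 20 for macrophage-like minus endothelial-like cells. Of the 11 settings that lost the first call, 6 left out a chip, and a test on 5 chips cannot pass 0.05. The median over cells and the denominator without nuclear copies of mitochondrial genes kept the chips and also lost it. The gap between CM-like and fibroblast-like cells changed by -0.808 points from early to late chips and that between CM-like and endothelial-like cells by -0.697 points (exact permutation tests of the difference of differences, adjusted p = 0.267 for each). With 3 against 3 and 2 against 3 chips these tests cannot go below 0.10 and 0.20, and the gaps of the late chips all lay below those of the early chips. The split of member UMIs between subunits was near even in every class, the Rpl genes holding 51.8% ± 2.62 (SD, n = 8 chips) for CM-like, 48.8% ± 2.45 (n = 9) for endothelial-like, 50.4% ± 2.86 (n = 10) for fibroblast-like and 48.9% ± 3.33 (n = 10) for macrophage-like cells.

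Other named cell types had shares on both sides of these values. Erythroid-like cells held 2.23 to 2.41 percent at P4, 0.256 percent on a P14 chip and 0.916 to 1.37 percent at P28. B cell-like cells held 3.63 percent on a P28 chip, T cell-like cells 1.56 to 4.81 percent on 4 P28 chips, and granulocyte-like cells 1.14 to 1.94 percent on 3 P28 chips. The lowest T cell-like value was a sum of 21 cells on replicate 1, and the others ran from 3.25 to 4.81 percent. Mural-like cells held 2.28 to 2.52 percent at P4 and 2.22 to 2.46 percent at P7.

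Rpl3l took a larger part of the Rpl3 pair in late CM-like cells, and on 4 of 5 late chips it had the more counted UMIs of the pair. Rpl3l (chr17:24727820-24736143, plus strand, mm10) and Rpl3 (chr15:80077791-80091868, minus strand) encode alternative versions of the same large subunit protein, which reaches to the peptidyl transferase centre. Rpl3l made up 14.4% (95% exact binomial interval 12.0 to 17.1, of 750 UMIs of both genes) and 12.8% (of 867) in the P4 chips and 6.54% (7 of 107) in the P7 chip. It made up 58.5% (of 366) and 33.1% (of 133) in the P14 chips, and 76.4% (of 1269), 64.1% (of 2482) and 55.4% (of 325) in the P28 chips. Every late chip was above every early chip. The intervals cover counting error only. The last 300 bases of Rpl3 shared 80.0 percent of their 31-base words with 25 other genes and those of Rpl3l none, so reads of Rpl3 may be lost to copies or gained from them where those of Rpl3l are not, and the part each holds of the pair depends on how such reads were assigned. The mean was higher late, going from 11.2% ± 4.15 (SD, n = 3) early to 57.5% ± 15.8 (n = 5) late, a difference of 46.3 points (exact permutation test, two-sided, p = 0.0357, the smallest that 3 against 5 chips allow).

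**Figure D2:**
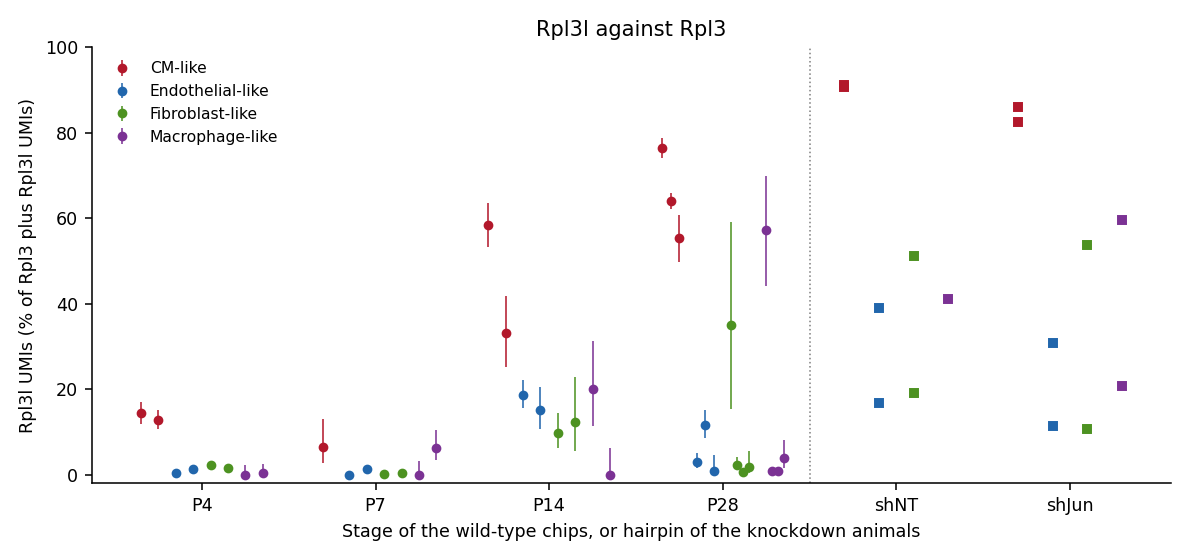
Rpl3l as percent of the UMIs of Rpl3 and Rpl3l by stage, each dot a chip with its 95% exact binomial interval, squares the knockdown animals without intervals; colours mark CM-like (red), endothelial-like (blue), fibroblast-like (green) and macrophage-like (purple) sums. CM-like dots lie between 6.54 and 14.4 percent at P4 and P7 and between 33.1 and 76.4 percent at P14 and P28.

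Rpl3l levels in CM-like sums were 18.1, 11.5 and 5.69 CPM in the early chips and 49.0, 15.8, 104, 82.4 and 36.3 in the late chips, so P14 replicate 2 lay between the P4 chips. Rpl3 levels were 107, 78.4 and 81.3 CPM early and 34.8, 32.0, 32.2, 46.1 and 29.3 late, with no overlap. In the edgeR fit Rpl3l was higher in late chips by 2.97 ± 0.60 (SE) on the log2 scale, or 7.81-fold (adjusted p = 0.00620, quasi-likelihood test with Benjamini-Hochberg adjustment), and past the threshold in every alternative run, with log2 changes from 2.29 to 3.55. Rpl3 was at -0.79 ± 0.38 in the same fit (edgeR adjusted p = 0.20).

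Rpl3l UMIs were held by few cells early and by many at P28. At P4, 24 of 345 CM-like cells (6.96%) had an Rpl3l UMI, and the 10 highest cells held 89.5% of the 219 UMIs, with up to 49 in a cell. At P7, 3 of 39 CM-like cells held 7 UMIs. At P14, 58 of 457 cells (12.7%) had 1, the 10 highest holding 57.8% of 258 UMIs, and at P28, 681 of 2108 cells (32.3%) had 1, the 10 highest holding 9.61% of 2747. The late cells were the shallower, with a median of 25039 UMIs per CM-like cell in P4 and 39146 in P7 hearts against 9637 in P14 and 8419 in P28 hearts. Cells with an Rpl3 UMI made up 62.0% in P4, 87.2% in P7, 23.0% in P14 and 29.3% in P28 hearts. The share of endothelial-like cells with an Rpl3l UMI, a class that should lack the gene, was 0.693% in P4, 0.990% in P7, 6.33% in P14 and 1.91% in P28 hearts, with median depths from 6649 to 17396.5 UMIs.

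In the other classes Rpl3l was a small part of the pair on most chips, with exceptions on late chips. Endothelial-like sums had 0 to 1.41% Rpl3l early, 18.7% and 15.2% at P14 and 0.833 to 11.7% at P28, and the 0 on P7 replicate 1 is of 1538 UMIs, which allows up to 0.195%. Their cardiomyocyte markers held 8667 to 11475 CPM early, 9216 and 10913 at P14 and 730 to 2018 at P28, with 730 on the chip of the 11.7%. Fibroblast-like sums had 0.110 to 2.20% early and 0.706 to 35.0% late, the highest being 7 of 20 UMIs on P28 replicate 1. Macrophage-like sums had 0 to 6.36% early and 0 to 57.4% late, the highest again on P28 replicate 1 with 35 of 61 UMIs. On that chip the cardiomyocyte markers held 11703 CPM among fibroblast-like and 16796 among macrophage-like cells, the highest late values of both classes. With the chip as a term, Rpl3l was higher in CM-like sums than in the mean of the other classes by 2.28 ± 0.60 on the log2 scale (edgeR adjusted p = 0.00585). The log2 change over the alternatives ran from 1.61 to 2.57, past the threshold in each. CM-like and other sums met on 6 chips only, at P28 on replicate 1 alone. The late against early change was 3.26 ± 1.06 in endothelial-like (edgeR adjusted p = 0.0817) and 2.90 in fibroblast-like cells (edgeR adjusted p = 0.137). The part of cardiomyocyte RNA in these values was not tested.

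Beyond Rpl3l no member passed the threshold between late and early chips. Of genes changed by 2 on the log2 scale in simulated counts, these fits called 10 to 36%. Of those changed by 4 they called 72 to 76%. A member that was not called may thus still have changed. In CM-like cells 1 of the 89 members tested was called, against 7.65% of all 15788 genes tested, 4.24% being higher and 3.41% lower. Among endothelial-like sums 0 of 91 were called (5.71% of all genes, 2.91% higher and 2.8% lower), among fibroblast-like sums 0 of 91 (3.9% of all genes, 1.61% higher and 2.29% lower), and in macrophage-like cells 0 of 88 (1.4% of all genes, 0.836% higher and 0.56% lower), all by edgeR at adjusted p 0.05. At an unadjusted p under 0.05 the counts were 8, 20, 16 and 8, and DESeq2 called 2 members each for CM-like, endothelial-like and fibroblast-like and 0 for macrophage-like sums. The scaling of this test is not that of the shares, since edgeR's factors follow the bulk of genes. The median log2 change of the members was 0.02 for CM-like cells beside 0.34 over all genes, -0.35 beside -0.05 for endothelial-like, -0.30 beside -0.17 for fibroblast-like and -0.21 beside -0.08 for macrophage-like cells. The members' median thus lay below that of all genes in each of the 4 classes.

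P7 CM-like cells, the stage the study singles out, were also set against the mean of the other stages. No member of 89 was called by edgeR (3.1% of all genes, 2.52% higher and 0.583% lower), 5 had an unadjusted p under 0.05, and DESeq2 called 2. The members' median log2 change was -0.25 beside -0.54 over all genes. This comparison rests on a single P7 chip with 23 CM-like cells. In simulated counts its fit called 14% of genes changed by 2 on the log2 scale.

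**Figure D3:**
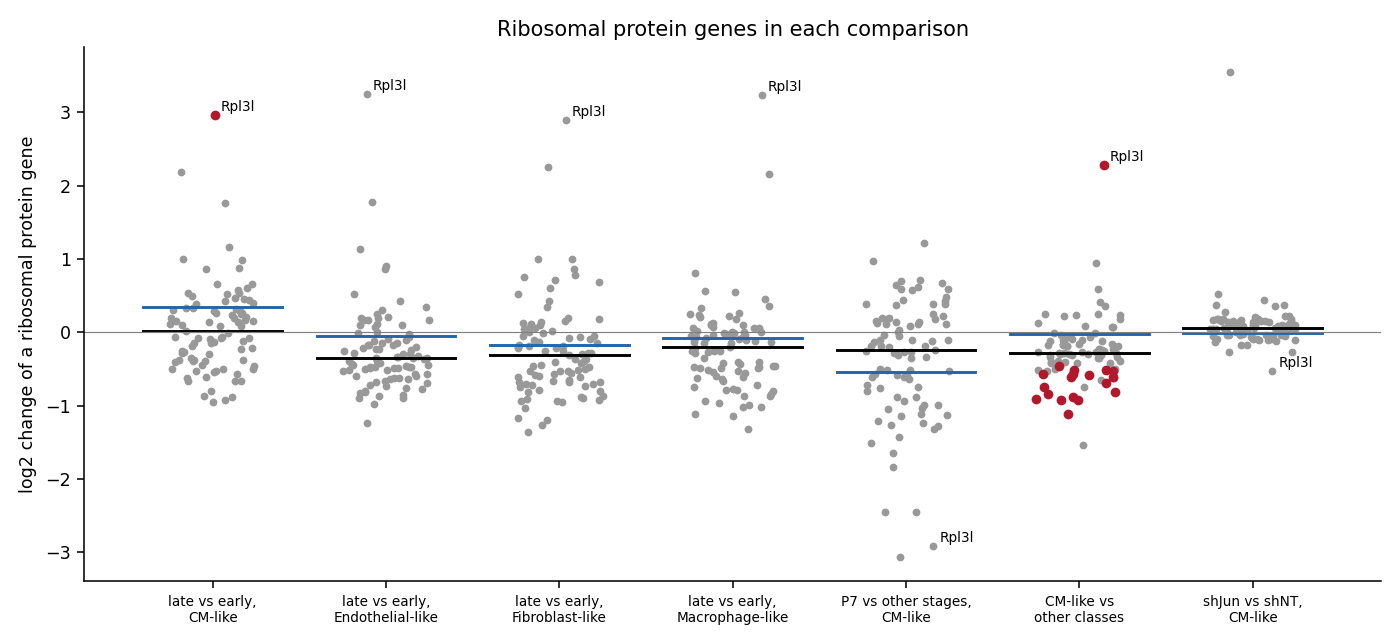
Log2 change of each member (grey dot, red where past an adjusted p of 0.05) in the 7 edgeR comparisons, with the median of all genes tested (blue line) and of the members (black line). Rpl3l, labelled, is the red dot of the CM-like late against early column at 2.97, and the column of CM-like against other classes holds 1 red dot above 0 and 18 below.

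Against the other classes, CM-like cells were lower in 18 of the 89 members tested and higher in Rpl3l. Over all 13606 genes tested 8.21% were lower and 13.7% higher, 21.9% in all. The members' median log2 difference was -0.28 beside -0.03 over all genes. The ranges of CM-like and other sums overlapped for all 18. The fit compares classes within chips, and only 6 chips held both CM-like and other sums, at P28 replicate 1 alone. The strongest was Rps19, a small subunit protein whose loss of function is known from Diamond-Blackfan anaemia, at -1.11 ± 0.13 on the log2 scale (edgeR adjusted p = 1.78e-07), with a mean of 215 CPM in CM-like and 784, 800 and 748 in endothelial-like, fibroblast-like and macrophage-like sums. In CM-like sums Rps19 stood at 407 and 291 CPM on the P4 chips, 350 on the P7 chip, 124 and 94.1 on the P14 chips and 182, 170 and 98.9 on the P28 chips, so every CM-like sum but that of P4 replicate 1 lay below the lowest endothelial-like sum, at 355. Rps27 differed by -0.92 ± 0.15 and Rps27rt by -0.84 ± 0.12 in the same direction, Rps14 by -0.57 and Rps3 by -0.51. The paralog list held 4 of the 18, Rps27, Rpl3 (-0.51 ± 0.17, edgeR adjusted p = 0.0247), Rpl7 (-0.52, edgeR adjusted p = 0.0324) and Rpl22l1 (-0.93, edgeR adjusted p = 0.0383). Others among the 18, named after their values were seen, were Rpl35 (-0.82), Rps18 (-0.74), Rpl32 (-0.69), Rps26, Rpl34, Rpl37rt and Rps28.

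The stalk genes, whose proteins form the flexible arm that recruits elongation factors, were not called in any comparison. Rplp0, the stalk base, had 579 and 672 CPM on the P4 chips, 586 on the P7 chip, 208 and 402 on the P14 chips and 382, 379 and 499 on the P28 chips in CM-like sums, so its early values were all above its late ones. Its mean was 463 CPM for CM-like, 762 for endothelial-like, 857 for fibroblast-like and 685 for macrophage-like sums. Rplp1 was at 362, 538, 587 and 596 CPM in the same order and Rpl12, which binds beside the stalk, at 21.9, 34.1, 44.9 and 50.7. Rplp2 was at 121, 111, 132 and 122 CPM, nearly level across classes. The nearest to the threshold were Rplp2 in late CM-like chips at 1.17 on the log2 scale (edgeR adjusted p = 0.0811) and Rplp0 in late endothelial-like chips at -0.74 (edgeR adjusted p = 0.0905).

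In CM-like sums the parts that other paralogs held of their pairs, early and late, were 20.1% and 17.9% for Rpl22l1, 78.4% and 70.0% for Rpl36al, 26.3% and 19.8% for Rpl7l1 and 26.5% and 16.2% for Rps4l of the pair with Rps4x, with no test made. Rpl22l1, which in other tissues is known to rise when Rpl22 is lost, made up 18.7% ± 6.22 (SD, n = 8) of the pair for CM-like, 27.8% ± 9.19 (n = 9) for endothelial-like, 41.5% ± 11.7 (n = 10) for fibroblast-like and 23.0% ± 8.03 (n = 10) for macrophage-like sums, and the ranges overlap. Rpl36al, a retrogene of Rpl36a that differs by 1 base in the window shown, made up 73.2% ± 12.3 in CM-like, 61.4% ± 16.0 in endothelial-like and 66.2% ± 15.3 in fibroblast-like sums. Rpl7l1, which takes part in large subunit assembly, made up 22.3% ± 7.47, 21.9% ± 11.5 and 18.5% ± 3.91 in the same classes. Rpl10l stayed under 1% of the Rpl10 pair in every sum. Rps27l, a paralog known as a target of p53, stood at a mean of 562 CPM for CM-like, 540 for endothelial-like, 728 for fibroblast-like and 627 for macrophage-like sums, with 1683 in the CM-like sum of P28 replicate 5 against 417 and 347 in replicates 1 and 3.

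Several members differed between chips of the same stage in every class compared. The 2 P4 chips hold cells of the same animals, yet 15 of 85 members compared (17.6%) differed by at least 2-fold in the same direction in all 4 classes, against 288 of 8409 genes (3.42%). In P4 replicate 2, Rps27 was at 0.12 to 0.14 of its level in replicate 1 in the 4 classes and Rpl24 at 0.13 to 0.16, and Rps28, Rpl36a, Rpl10, Rpsa, Rpl15, Rpl27a, Rpl31, Rpl37a, Rpl5, Rpl9 and Rps3a3 were lower too. Rps16 was higher there, by 2.22 to 5.36 times. The same animals thus gave 165 and 23.0 CPM of Rps27 in CM-like cells. At P7, 4 of 85 members (4.71%) were higher in replicate 2 in the 3 classes compared (Rpl36 and Rpl29 among them), against 1.73% of all genes. At P14, 0 of 81 members passed, against 2.31% of genes. At P28, 5 of 88 members (5.68%), Rpl30, Rpl34, Rps20, Rps27 and Rps27rt, were lower in every class compared, against 1.54% of genes. For CM-like sums this meant lower in replicate 5 than in replicates 1 and 3. For the other classes it meant lower in replicate 6 than in replicates 2 and 4. The fibroblast-like and macrophage-like sums of replicate 1 were not used. Those members were named after their values were seen, and nothing here tests what differed between chips.

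**Figure D4:**
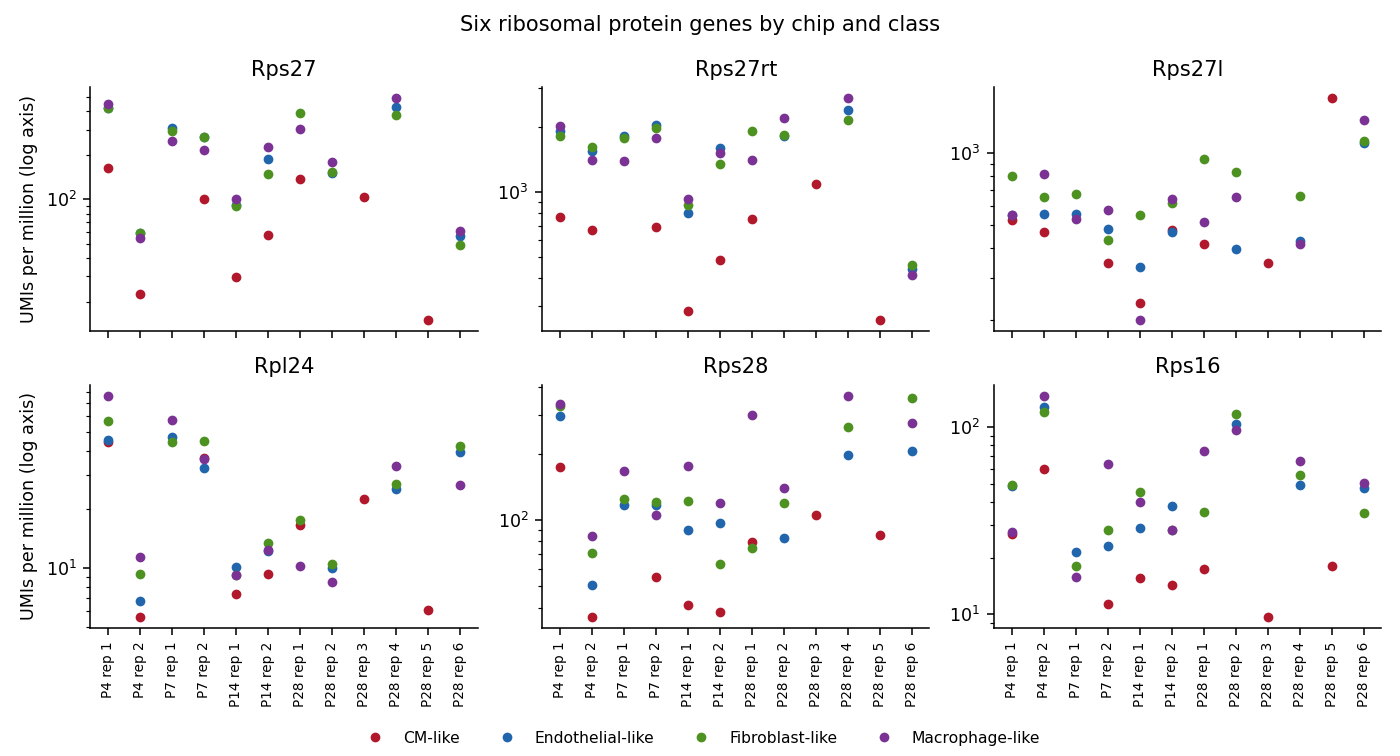
Level in UMIs for each 1000000 non-mitochondrial UMIs (CPM, log axis) of Rps27, Rps27rt, Rps27l, Rpl24, Rps28 and Rps16 in each of the 12 wild-type chips, coloured by cell class. Rps27, Rpl24 and Rps28 are lower and Rps16 is higher in P4 replicate 2 than in replicate 1 in all 4 classes: Rps27 in CM-like cells is at 165 in P4 replicate 1 and 23.0 in P4 replicate 2.

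Other translation genes were read beside the members from lists of fixed membership, against 13.7% of all genes higher and 8.21% lower in CM-like cells. Mitochondrial ribosomal proteins went the other way between classes, 51 of 74 tested being higher in CM-like cells and none lower, with a median log2 difference of 1.03. Of 14 elongation genes, Eef1a2, the muscle and neuron form of the factor that delivers aminoacyl-tRNA, was higher in CM-like cells by 2.05 (edgeR adjusted p = 0.00445), and Pabpc1, the poly(A)-binding protein, was lower (-0.86, edgeR adjusted p = 5.9e-04). Of 30 initiation genes 3 were higher, namely Eif1 (0.87), Eif4g2 (0.74) and Eif4ebp1 (0.70), and none lower. Of 16 control genes 2 were higher, Rragd (3.17, edgeR adjusted p = 0.00114), a GTPase that passes amino acid signals to mTOR, and Mtor itself (1.91, edgeR adjusted p = 0.0298). Of 32 biogenesis genes Npm1 (-0.61) and Taf1d (-0.94) were lower and none higher. Beside the shares of all genes, the counts of the elongation, initiation, control and biogenesis lists are no result about those lists. Fau and Rack1, ribosomal genes outside the symbol rule, were tested and neither was called.

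Between late and early CM-like chips, Eef1a2 was higher by 1.46 ± 0.44 (edgeR adjusted p = 0.0495), as were Eif3j1 (1.33), Gnl3 (1.63) and Rragc (2.00), while Bop1, a pre-ribosome assembly factor, was lower (-2.63, edgeR adjusted p = 0.0396). That is 1 of 13 elongation, 1 of 30 initiation, 1 of 16 control and 2 of 32 biogenesis genes, and 2 of 75 mitochondrial ribosomal proteins were lower, beside 4.24% of all genes higher and 3.41% lower. In late endothelial-like chips the nucleolar genes Ncl (-1.11, edgeR adjusted p = 0.0173), Nop58 (-1.43) and Npm1 (-1.12) were lower, 3 of 32 biogenesis genes, and 2 of 75 mitochondrial ribosomal proteins were lower, beside 2.8% of all genes. In macrophage-like chips Ncl was lower (-1.61, edgeR adjusted p = 0.0359), 1 of 30 biogenesis genes beside 0.56% of all genes, and in fibroblast-like chips no gene of these lists was called. In P7 CM-like cells 3 of 75 mitochondrial ribosomal proteins were higher, beside 2.52% of all genes, and no gene of the other lists was called.

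In the knockdown hearts, Jun itself was at 25.7 and 33.6 CPM in CM-like cells of the 2 shJun animals and at 53.5 and 61.8 in the 2 shNT animals, lower under shJun in each. The share of the members was 1.10 and 1.16 percent under shJun and 1.02 and 1.08 percent under shNT, a difference of 0.0756 points beside a pooled SD of 0.0429, and with 2 animals on each side an exact test cannot pass 0.05. On the 4 chips that held animals of both kinds shJun was the higher in 4 of 4, by 0.0618 to 0.193 points, and since each pair of animals shared its chips these are not independent. No member of 91 was called by edgeR, as no gene of 17757 was (0%), 1 member had an unadjusted p under 0.05, and DESeq2 called none of the members. That member was Rpl3l, at -0.53 ± 0.20 on the log2 scale (edgeR adjusted p = 0.9999). In simulated counts the knockdown fit called 17% of genes changed by 2 on the log2 scale. Rpl3l made up 82.6% and 86.0% of the pair under shJun and 91.2% and 90.7% under shNT, with 152 and 190 CPM of Rpl3l against 233 and 238. In other classes of these animals Rpl3l made up 10.6 to 59.7% of the pair, with cardiomyocyte markers at 4234 to 48916 CPM, highest in the macrophage-like sum of the second shJun animal where Rpl3l was at 59.7%.

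Columns that copy members drew more UMIs than the members. The matrices hold 236 columns named as ribosomal pseudogenes, and 384 pseudogene columns share at least 30 percent of the 31-base words of their whole transcript with members. These 384 held a mean of 396 UMIs per CM-like cell, beside 259 for the 92 members, and 721 beside 459 for endothelial-like, 999.9 beside 644 for fibroblast-like and 696 beside 446 for macrophage-like cells. In control wells the members had 3.45 UMIs (60 negative wells) and 3.87 (61 positive wells) and the copies 4.27 and 4.69. Those wells held a median of 111 and 135 non-mitochondrial UMIs, against 10003 to 14345 in cells of the 4 classes. Counts per well thus do not compare shares of UMIs. With the copies counted in, the share of members and copies differed between late and early chips by -1.08 points in CM-like and -1.95 points in endothelial-like cells, and fibroblast-like cells exceeded CM-like cells by 2.91 points.

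**Figure D5:**
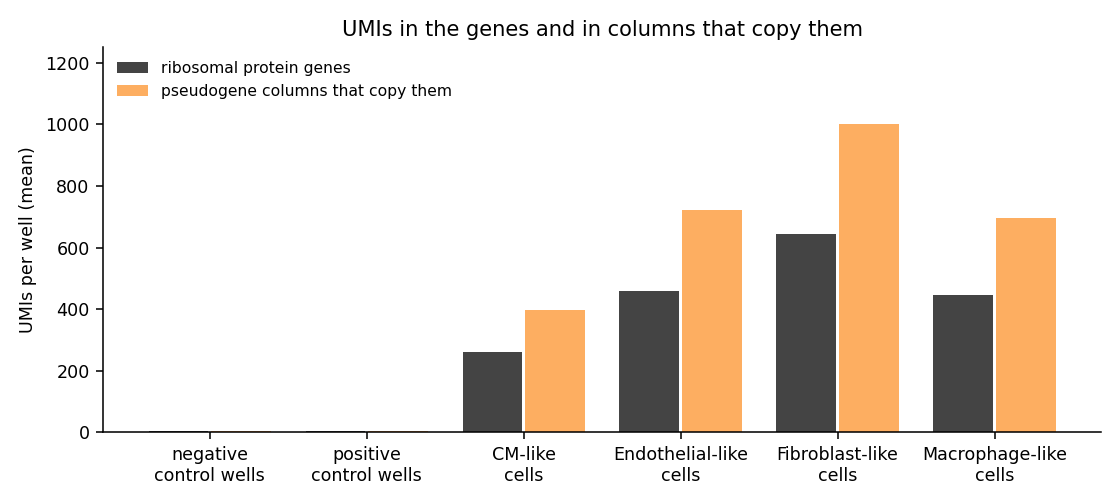
Mean UMIs per well (bars from 0) of the 92 members (dark) and of the 384 pseudogene columns that copy them (orange), in negative and positive control wells and in the 4 cell classes. The copies exceed the members in every class, 396 against 259 in CM-like cells, and both are near 4 in control wells. Control wells held a median of 111 (negative) and 135 (positive) non-mitochondrial UMIs, against 10003 in CM-like cells.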

How the data were processed

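Single-cell 3′ RNA-seq was measured on 12 wild-type and 6 knockdown ICELL8 chips. The authors deposited raw UMI counts per gene and well. The submitters' processing notes name STAR 2.5.2b, featureCounts and Subread 1.4.6-p1 with build mm10. Wells of at least 500 genes and log10 UMIs within 2 SD of the group mean were kept, spike-ins and mitochondrial genes left out, and cells clustered per stage or animal with leidenalg 0.10.2 (30 neighbours, 10 components). Clusters were named X-like from marker lists, with a margin of 0.25 over the next name set after seeing the clusters. Doublets were not called here; the study chose wells by imaging. UMIs were summed per class and chip (knockdown: per animal), and tested with edgeR 4.0.16 (TMM, filterByExpr, quasi-likelihood, Benjamini-Hochberg over all genes; DESeq2 1.42.0 as alternative) in R 4.3.3, or with exact permutation tests over chips in scipy 1.17.1. Levels in CPM are plain shares, not TMM-scaled. Scripts were tested on simulated data. The members and lists were chosen with earlier results of these data known. Named were the paralogs, the stalk genes, the 5 highest and 5 lowest members, up to 5 members each way past the threshold with groups that did not overlap, and up to 4 genes a pathway list. Protein sequences are not printed here. Results of some genes are not reported here.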

Additional observations from a re-analysis of the deposited data

Results flagged for a closer look

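Columns outside the 92 members held more UMIs per well in cells than in control wells, which were far shallower. Control wells held a median of 111 (negative) and 135 (positive) non-mitochondrial UMIs, against 10003 to 14345 in the 4 classes. Counts per well therefore do not compare shares of UMIs. The 384 pseudogene columns that copy members held 396.462 UMIs per CM-like cell, 721.069 per endothelial-like, 999.865 per fibroblast-like and 695.946 per macrophage-like cell, against 4.27 UMIs per negative and 4.69 per positive control well. In 9 groups of 4 to 10 chips no chip stood apart from the rest of its group by Dixon's test at the 95% level.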

How the results depend on the processing

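Of 324 values under alternative settings of 17 results, 240 kept direction and side of the threshold or gave an equal or similar count of members. 1 was reversed. Between classes, for example, counts of 15 to 25 called members were taken as kept beside 19. Differences in share are in percentage points, with edgeR counts at adjusted p 0.05. With the median over cells, the late minus early share was -0.741 in endothelial-like and -0.877 in fibroblast-like cells, now past the threshold, and the gaps fibroblast-like minus CM-like 1.16 and macrophage-like minus endothelial-like 0.10 were past it no longer. With each cell named by its own markers, late minus early was -0.672 in CM-like, -0.801 in endothelial-like and -0.866 in fibroblast-like cells and endothelial-like minus CM-like was 0.960, all now past it; fibroblast-like minus endothelial-like fell to 0.0254 and macrophage-like minus endothelial-like reversed to -0.0271. The cell filter over the whole experiment gave 1.22 and 0.114, and at least 1000 genes gave 1.26 and 0.119, for fibroblast-like minus CM-like and macrophage-like minus endothelial-like, none past the threshold. Cells thinned to 5000 UMIs gave -0.698 and -0.886 in endothelial-like and fibroblast-like cells, past it, and an Rpl3l difference of 40.4 points, not past it (exact permutation p = 0.0714). Sums of at least 10 cells gave 1.19 for endothelial-like minus CM-like, past it, and 0.0191 and 0.0305 for fibroblast-like and macrophage-like minus endothelial-like, not past it. Summed per animal, late minus early was -0.720 in endothelial-like and -0.742 in fibroblast-like cells, past it. The next settings were added after seeing the data. A denominator without nuclear copies of mitochondrial genes gave -0.791 in endothelial-like and -0.835 in fibroblast-like cells, past the threshold. For fibroblast-like minus CM-like, fibroblast-like minus endothelial-like and macrophage-like minus endothelial-like it gave 1.08, 0.104 and 0.111, not past the threshold. Members with their copies gave 2.91, 0.280 and 0.344 for the same gaps, not past the threshold, and 0.210 for shJun minus shNT. Cluster names without the margin, and CM-like cells without clusters led by genes of other cells, changed no call on a difference in share. Their counts of called members differed in places from the main run. Without the 100 most abundant genes shJun minus shNT was 0.120.

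Members called in late CM-like chips numbered 2 by DESeq2, 5 with cells named singly, 2 thinned and 2 with sums of 10 cells; in endothelial-like chips 2 by DESeq2, 1 with upper quartile scaling, 10 without a filter on low counts, 1 with cells named singly, 1 thinned and 1 without the naming margin; in fibroblast-like chips 2 by DESeq2, 5 without that filter, 1 with the experiment-wide cell filter, 1 at 1000 genes, 6 thinned and 1 per animal; in P7 CM-like chips 2 by DESeq2, 1 without the filter, 3 with cells named singly and 2 with sums of 10 cells; and between classes 34 by DESeq2, 7 without the filter and 29 with sums of 10 cells. The cause was not tested. Leaving out each chip in turn, late minus early ran from -0.512 to -0.299 in CM-like, -0.952 to -0.647 in endothelial-like, -1.03 to -0.771 in fibroblast-like and -0.850 to -0.573 in macrophage-like cells, fibroblast-like minus CM-like from 1.03 to 1.25, macrophage-like minus endothelial-like from 0.0893 to 0.143 and the Rpl3l difference from 41.5 to 52.4 points. With a chip fewer, the smallest possible p of the fibroblast-like minus CM-like and Rpl3l tests is itself over the threshold. Members called ran from 0 to 6 in endothelial-like chips (6 without P28 replicate 6), 0 to 1 in fibroblast-like and P7 CM-like chips, and 15 to 25 between classes (25 without P28 replicate 1). A replicate block of the chip pairs left 0 members called between shJun and shNT.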
